A study of Drosophila melanogaster with 6 samples.

Results

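Rh7 is the rhodopsin gene measured here: of the 7 fly rhodopsin genes sought, 1 was matched to probe sets by its own symbol. Members were chosen as every probe set that the platform's probe annotation pairs with exactly 1 gene symbol, that symbol being ninaE, Rh2, Rh3, Rh4, Rh5, Rh6 or Rh7. This gave 1 gene of the 11982 that have a probe set with a single symbol. It is read by 2 probe sets of the 18769 tested, 1635912_at and 1629596_s_at. The other 6 genes are not analysed here, so no statement below covers the visual pigments of the main photoreceptor classes. A probe set is a group of short probes on an Affymetrix array that together report the level of 1 transcript or of several alike.

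Rhodopsins are light receptors of the G protein-coupled family, made of a protein, the opsin, and a bound vitamin A derivative that changes shape in light. In the fly eye the activated pigment acts through a Gq protein and phospholipase C to open the cation channels TRP and TRPL, and arrestins end the response. Most fly opsins serve single classes of photoreceptor in the compound eye or the ocelli. Rh7 is known instead as an opsin of brain pacemaker neurons, where it takes part in setting the circadian clock by light, and reports differ on its presence in the eye.

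RNA came from heads of 5-day-old adult males of Drosophila melanogaster in 3 groups of 2 arrays each. Rescue flies carried a homozygous mutation of dme-miR-14, a microRNA, and made dme-miR-14 in their insulin-producing cells (IPCs), neurosecretory cells of the brain that release insulin-like peptides. Mutant flies carried the homozygous mutation alone. The control flies are labelled wild-type. The labels name neither the allele nor the driver of the rescue construct, and do not say how many heads entered each extract. Replicates are called biological, and p-values measure the spread between these pairs of samples only.

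Values are linear intensities, summarised and normalised between arrays by the authors with RMA. The level of mir-14 itself is not analysed here, so the genotypes rest on the labels. The samples carried eye and brain transcripts: chp, the photoreceptor surface protein chaoptin, read from 3808.4 to 5721.7, and the neuronal gene nSyb from 852.9 to 1495.0. Replicates correlated across probe sets at 0.998 in rescue, 0.997 in mutant and 0.994 in control. The ratio of signal at the 5′ end of a transcript to that at its 3′ end, a common gauge of RNA integrity, differed between arrays. The actin control probes gave a 5′ to 3′ signal ratio of 0.153 and 0.144 on rescue arrays, 0.0941 and 0.137 on mutant arrays, and 0.104 and 0.0581 on control arrays. The GAPDH control probes gave 0.0742 and 0.085 on rescue arrays, 0.054 and 0.071 on mutant arrays, and 0.061 and 0.0319 on control arrays. In both ratios control replicate 2 was the lowest array, and the rescue arrays were the highest. On every array the signal at the 3′ end of these transcripts far exceeded that at the 5′ end.

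The brighter Rh7 probe set read lowest in rescue heads and highest in control heads, and passed the test in no comparison. Probe set 1635912_at had intensities of 162.0 and 184.8 in rescue heads, 196.5 and 187.4 in mutant heads, and 210.5 and 234.6 in control heads. Both rescue arrays were below both mutant arrays, and both mutant arrays were below both control arrays. How many of all probe sets separate in this way was not computed, so such orders, here and below, are descriptions only. The gap between the nearest arrays of rescue and mutant was narrow, with 184.8 in rescue and 187.4 in mutant. Group means were 173 ± 16.1 in rescue, 192 ± 6.43 in mutant and 223 ± 17.0 in control (SD, n = 2 each).

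The dimmer probe set, 1629596_s_at, had intensities of 62.7 and 61.8 in rescue heads, 53.2 and 58.4 in mutant heads, and 54.1 and 57.3 in control heads. Here the rescue arrays were the highest, and mutant and control arrays overlapped. Means were 62.2 ± 0.636 in rescue, 55.8 ± 3.68 in mutant and 55.7 ± 2.26 in control (SD, n = 2 each). The table has no detection call. As a rough guide, 17 control probe sets with no fly target (AFFX-r2-Tag) read between 7.7 and 39.8 on these arrays. Both Rh7 probe sets read above that range, but probes differ in affinity and this does not establish a detection limit.

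**Figure D1:**
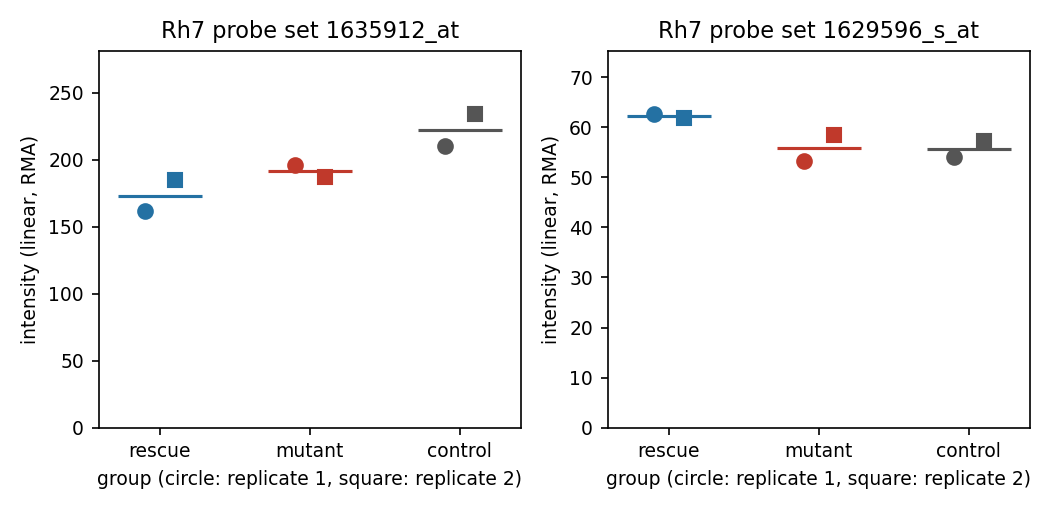
Linear RMA intensity of the 2 Rh7 probe sets on each array (vertical axis from 0), by group; circles are replicate 1, squares replicate 2 and bars the mean of 2 arrays. In the left panel the rescue arrays, at 162.0 and 184.8, lie below the others; in the right panel the rescue arrays, at 62.7 and 61.8, lie above the others.

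The comparison of mutant and control heads asks whether the level of Rh7 differs in flies with the mir-14 mutation. Its brighter probe set had a log2 difference of -0.21 ± 0.0991 (SE), or 0.864-fold, with a 95% interval from 0.734 to 1.02-fold (limma, adjusted p = 0.221). The dimmer probe set had a difference of 0.00 ± 0.0835 and an interval from 0.873 to 1.15-fold (limma, adjusted p = 0.993). Rh7 therefore passed the threshold of 0.05 on neither probe set, in a comparison where 10.8% of all probe sets passed it (6.88% higher and 3.88% lower in mutant heads). On the brighter probe set the arrays allow a fall to 0.734-fold and a rise to 1.02-fold. Of all probe sets, 67.2% differed less between mutant and control than the brighter Rh7 probe set did, and 0.709% differed less than the dimmer one.

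The comparison of rescue and mutant heads asks how mutant heads differ once miR-14 is restored to those secretory neurons. The probe sets of Rh7 differed in opposite directions, and neither passed. The brighter one had a log2 difference of -0.15 ± 0.0991 (0.902-fold, 95% interval 0.767 to 1.06, limma adjusted p = 0.594), and the dimmer one of 0.16 ± 0.0835 (1.12-fold, interval 0.974 to 1.28, adjusted p = 0.485). In this comparison 1.4% of all probe sets passed (0.693% higher and 0.709% lower in rescue heads). The rescue intensities of the brighter probe set, 162.0 and 184.8, lay below the mutant values and so farther from control than those. Leaving out rescue replicate 1 reduced that difference to -0.05, and leaving out rescue replicate 2 gave -0.24. Rescue replicate 1 was thus the array on which the lower mean rested most.

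Rescue against control gave the largest of the 3 differences of Rh7. The brighter probe set was 0.779-fold of control in rescue heads, a log2 difference of -0.36 ± 0.0991, with a 95% interval of the single comparison from 0.662 to 0.916-fold. Its unadjusted p of 0.00824 became 0.0601 after adjustment over all probe sets (limma), just outside the threshold, so Rh7 was not called. Here 12.1% of all probe sets were called (6.83% higher and 5.25% lower in rescue heads), and 83.7% differed less than this one did. The dimmer probe set differed the other way, by 0.16 ± 0.0835 (1.12-fold, interval 0.975 to 1.28, adjusted p = 0.24). Both rescue arrays were below both control arrays on one probe set and above both on the other.

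**Figure D2:**
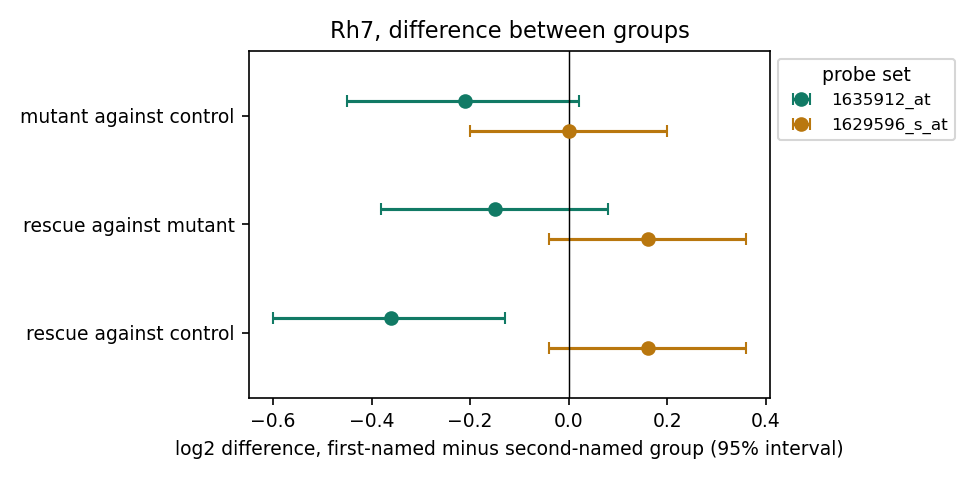
Log2 difference of each Rh7 probe set in the 3 comparisons (horizontal axis, first-named minus second-named group), with the 95% interval of the limma fit. Of the 6 intervals, only that of 1635912_at between rescue and control, from -0.60 to -0.13, leaves out 0.

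The call of the brighter probe set between rescue and control turned on which arrays and probe sets entered. Without control replicate 1, which leaves control replicate 2 as the only control, the difference was -0.44 and passed (adjusted p = 0.0273). Without control replicate 2 it was -0.28 (adjusted p = 0.177), and without rescue replicate 1 it was -0.27 (adjusted p = 0.285). With only probe sets of a mean log2 intensity of at least 5 tested, the difference stayed at -0.36 and passed (adjusted p = 0.0482). The 5′ to 3′ ratios moved with this result, being highest in rescue and lowest on control replicate 2, the array with the highest Rh7 value. When an index of them (the mean log2 ratio of the actin and GAPDH control probe sets) entered the model, the difference was -0.22 ± 0.138 (adjusted p = 0.483). The opposite difference of the dimmer probe set was then 0.17 (adjusted p = 0.561). Because the index moved with the groups, this model cannot tell index and group apart. For the brighter probe set the SE widened from 0.0991 to 0.138, so the model has little power for it. Other calls between rescue and control lost below differed in this. The SE of chp widened from 0.0824 to 0.111. That of the gene dve went from 0.125 to 0.11, while its difference shrank from -0.50 to -0.16. A call lost in it, here or below, does not show its cause.

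**Figure D3:**
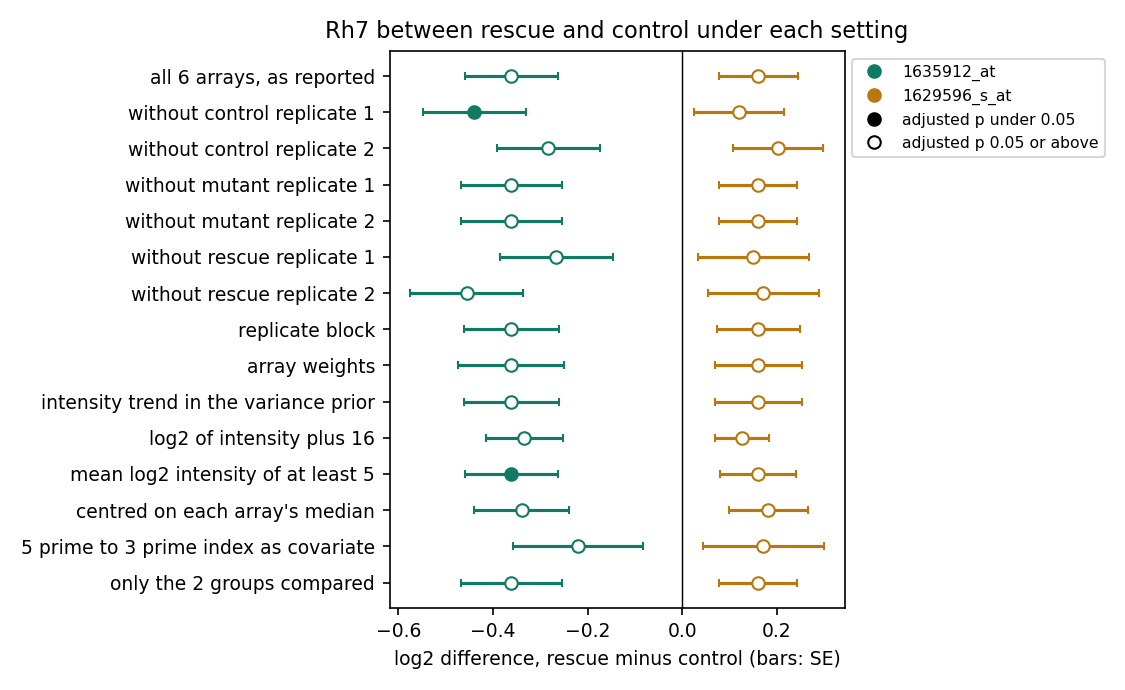
Log2 difference between rescue and control of both Rh7 probe sets (horizontal axis, bars are SE) under each setting named on the vertical axis; filled points passed an adjusted p of 0.05. The brighter probe set lies below 0 in every row shown, from -0.46 to -0.22, and is filled in 2 of them, while the dimmer lies above 0 in every row, from 0.12 to 0.20.

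The distance between the probe sets of Rh7 can be read within each array. The brighter minus the dimmer was 1.37 and 1.58 log2 units in rescue heads, 1.89 and 1.68 in mutant heads, and 1.96 and 2.03 in control heads. It was smallest on the rescue arrays and largest on the control arrays. The difference of this distance between groups was not tested. The suffix _s_at is Affymetrix's mark for probes shared by more than 1 transcript, whereas the annotation lists 1 gene for both probe sets. In the RefSeq annotation of Release 6 plus ISO1 MT, Rh7 has 1 transcript and 0 other genes overlap it. The sources used here do not say which stretch of the transcript each probe set reads. With the mean of both probe sets taken as the level of Rh7, an alternative chosen after seeing the data, the differences were -0.10 between rescue and control (adjusted p = 0.451), -0.10 between mutant and control (adjusted p = 0.452) and 0.00 between rescue and mutant (adjusted p = 0.99).

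Rh7 (CG5638, NCBI gene 39389) lies on chromosome arm 3L, and its measured neighbours differed between groups in both directions. On one side, CG9760, CG32099 and the septate junction gene Nrx-IV had differences of -0.04, 0.28 and 0.13 between rescue and control, none past the threshold (limma, adjusted p from 0.0719 to 0.761). On the other side CAH2, a carbonic anhydrase gene and the next in order, was lower in both mutant and rescue. It read 1058.7 and 956.0 in rescue, 1109.8 and 1044.4 in mutant, and 1521.4 and 1516.7 in control heads. The differences from control were -0.50 in mutant (adjusted p = 0.0137) and -0.59 in rescue (adjusted p = 0.00735). The first did not pass without either mutant array (adjusted p = 0.0717 and 0.11), and the second not without rescue replicate 2 (adjusted p = 0.0756). Miox, an inositol oxygenase gene, was higher in rescue than in control by 0.69 (adjusted p = 0.02). That call was lost when control replicate 2 or a rescue array was left out (adjusted p from 0.0605 to 0.14). Between rescue and control, Miox (adjusted p = 0.185) and CAH2 (adjusted p = 0.08) did not pass once the 5′ to 3′ index entered the model. The gene thoc6 had 0.11 (adjusted p = 0.428).

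The genes most like Rh7 in pattern were sought by Pearson correlation of log2 level over the 6 arrays, among 1-symbol probe sets whose range was at least 0.5 times that of Rh7. Arrays share their group and differ in 5′ to 3′ ratio, so the correlations are descriptions. For the brighter probe set, the closest of 9518 candidates were CG9986 (0.997), Spps (0.994), which encodes a Polycomb-linked zinc finger protein, and nito (0.994), an RNA-binding protein gene. CG9986 read 178.2 and 202.2 in rescue, 222.5 and 211.3 in mutant, and 236.5 and 273.0 in control heads, the same order of arrays as Rh7. Its difference between rescue and control was -0.42, and that of nito was -0.48. These genes were picked for likeness to Rh7 on the same arrays. Their differences follow from that choice, so they are descriptions and add no test. As many as 144 candidates (1.51%) correlated above 0.95. For the dimmer probe set the closest of 13260 candidates were Naa60 (0.993), an N-terminal acetyltransferase gene, CG5742 (0.986) and thw (0.983), which read only 6.5 to 7.9, and 12 (0.0905%) were above 0.95. None of these 3, picked in the same way, differed between groups past the threshold in any comparison.

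Since Rh7 is placed in pacemaker neurons, 2 clock neuron genes were read beside it. Pdf, the neuropeptide of the ventral clock neurons, had 967.6 and 944.4 in rescue, 738.5 and 834.5 in mutant, and 965.5 and 859.0 in control heads. It passed in no comparison, with 0.07 between rescue and control (adjusted p = 0.663). The gene cry, which encodes the blue light receptor cryptochrome, had 1256.2 and 1328.3 in rescue, 1177.5 and 1188.8 in mutant, and 1056.8 and 837.4 in control heads. It was higher in rescue than in control by 0.46 (limma, adjusted p = 0.0489), opposite in sign to the brighter Rh7 probe set and the same in sign as the dimmer. That call held without control replicate 1 but was lost without any of the other 5 arrays (adjusted p from 0.1 to 0.256) and once the 5′ to 3′ index entered the model (0.18, adjusted p = 0.525).

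Of the genes that act with rhodopsins in vision, those of the signalling cascade were the list with the most calls between rescue and control. In these whole-head samples, fewer cells of a type and less RNA per cell cannot be told apart. These genes, which act below rhodopsin, had a median difference of -0.42 between rescue and control, against -0.03 for all 11982 genes with 1 symbol. The brighter Rh7 probe set had -0.36 and the dimmer 0.16, and neither was called. Of the 15 cascade genes measured 8 were lower and 0 higher, while 5.69% of all genes were lower. The largest falls were in trpl and rdgB, the second encoding a phosphatidylinositol transfer protein, at -1.11 (adjusted p = 0.000673) and -0.79 (0.0174). The other probe set of rdgB had -0.39 and did not pass (limma, adjusted p = 0.093). Galphaq, the G protein subunit that rhodopsin activates, had -0.70 (0.00438) on its brightest probe set, but -0.20 and 0.33 on its others, which did not pass. The diacylglycerol kinase gene rdgA, the channel gene trp and the sodium-calcium exchanger gene Calx had -0.59, -0.52 and -0.51 (adjusted p from 0.00905 to 0.0185). Other probe sets of rdgA had -0.47, which passed (limma, adjusted p = 0.0111), and -0.39 and 0.06, which did not. The number of cascade genes lower was 5 without control replicate 2, 2 without rescue replicate 1, 3 without rescue replicate 2, and 1, trpl, once the 5′ to 3′ index entered the model.

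**Figure D4:**
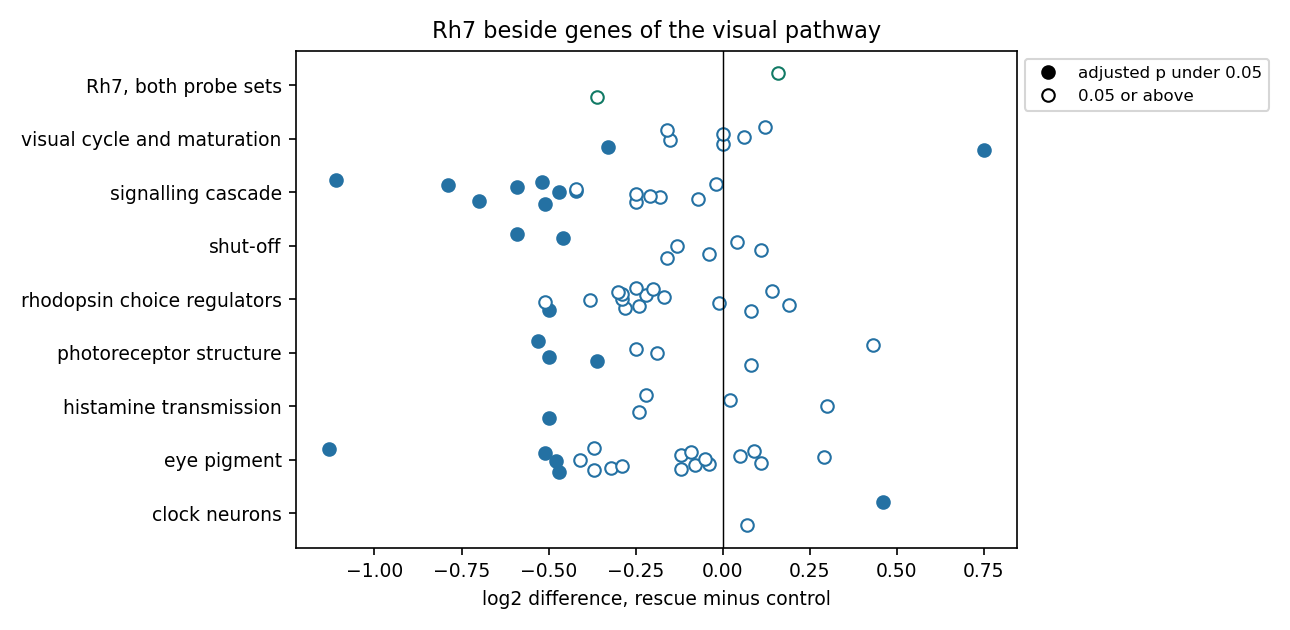
Log2 difference between rescue and control (horizontal axis) of both Rh7 probe sets and of the brightest probe set of each measured gene in 8 lists; filled points passed an adjusted p of 0.05 (limma). The Rh7 points, at -0.36 and 0.16, are open, and the signalling cascade has 8 filled points, all below 0.

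Calls in the other lists of the visual pathway went in both directions. Cnx99A, a calnexin chaperone needed for rhodopsin folding, had the largest differences from control among 8 genes of opsin maturation and the visual cycle, with 2389.4 and 2426.4 in rescue, 3451.5 and 3622.1 in mutant, and 1464.0 and 1409.5 in control heads. It was higher by 1.30 in mutant than in control (adjusted p = 0.000193) and by 0.75 in rescue than in control (adjusted p = 0.00195), the opposite sign to the brighter Rh7 probe set, and both calls held with each of the 6 arrays left out. In that list rdhB, a retinol dehydrogenase gene, fell by 0.46 in mutant against control (adjusted p = 0.0161), and Pdh, another dehydrogenase gene of pigment cells, fell by 0.33 in rescue against control (adjusted p = 0.0297). The median of that list between rescue and control was 0.00. Among 7 shut-off genes the median between rescue and control was -0.13. Lower in rescue were stops at -0.59 (adjusted p = 0.017) and the rhodopsin phosphatase gene rdgC at -0.46 (adjusted p = 0.0478). The other probe set of rdgC had -0.07 and did not pass (limma, adjusted p = 0.594). The arrestin genes Arr1 and Arr2 passed in no comparison. Of 16 regulators that choose which opsin a photoreceptor makes, the homeobox gene dve alone passed in any comparison, at -0.50 between rescue and control (adjusted p = 0.0455), with -0.10 on its other probe set. The median of these regulators there was -0.25, and their share lower, 6.25%, was near the 5.69% of all 1-symbol genes. Of 7 photoreceptor structure genes 3 (chp, sdt and Moe), and of 5 histamine transmission genes 1 (CarT), were lower in rescue than in control, from -0.53 to -0.36 (adjusted p from 0.0118 to 0.0427). Beside the 5.69% of all 1-symbol genes, the share lower was 42.9% of the structure, 20.0% of the histamine and 28.6% of the shut-off list. Other probe sets of the structure genes went both ways: the other 5 of sdt ran from -0.42 to 0.47 and did not pass. A dimmer one of prom, the prominin gene, was higher by 0.58 (adjusted p = 0.0194), while its others had 0.43 and -0.13 and did not pass. In the model that holds the 5′ to 3′ index, the count of genes lower between rescue and control was 0 for the shut-off, structure and histamine lists and for maturation and the visual cycle. Among the values behind this, rdgC had -0.16 (adjusted p = 0.525), stops -0.33 (adjusted p = 0.188), chp -0.38 (adjusted p = 0.139) and CarT -0.25 (adjusted p = 0.316). The count of regulators lower was 1 in that model, but dve itself had -0.16 (adjusted p = 0.511).

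Over these 6 lists 58 genes were measured and had a median difference of -0.08 between mutant and control, -0.16 between rescue and mutant, and -0.23 between rescue and control. The brighter Rh7 probe set had -0.21, -0.15 and -0.36 in these. Between mutant and control 5 passed, 2 higher and 3 lower, and the call of Cnx99A alone held with each of the 6 arrays left out. Between rescue and mutant 6 passed, all lower, and 0 held so. Between rescue and control 17 passed, 1 higher and 16 lower, and those of Cnx99A and trpl held. These were also the only calls of the 17 kept with the 5′ to 3′ index in the model. That model cannot tell index and group apart, so the loss of the others does not show its cause. The shares of all 1-symbol genes that passed were 13.3%, 1.73% and 14.6% in the same comparisons. Higher in mutant than control were Cnx99A and the cascade gene rtp (0.37, limma adjusted p = 0.0227). Lower were trpl (-0.58), rdhB (-0.46) and Galphaq (-0.37), with adjusted p from 0.00796 to 0.0434. Other probe sets of Galphaq had 0.08 and 0.33 and did not pass. Lower in rescue than mutant were stops (-0.92), CarT (-0.85) and the cascade gene inaD (-0.57). So were Cnx99A (-0.55), trpl (-0.53) and chp (-0.49), with adjusted p from 0.0117 to 0.0457 in these 6. The lost calls between mutant and control failed without either mutant array, those between rescue and mutant without either rescue array, and each of those between rescue and control without at least 1 of these.

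Markers of other head cells were read on the same arrays. The summed level of the 19 measured eye pigment genes ran from 7741.9 to 8009.1 in rescue, from 9500.0 to 9893.6 in mutant and from 9961.0 to 11129.1 in control heads, in the same order as the brighter Rh7 probe set. Such sums of linear intensities follow the brightest genes of a list, here se (-1.13 between rescue and control), Pu (-0.47) and pr (-0.51). The median difference of the pigment genes in that comparison was only -0.12. Among these genes 4 were lower and 0 higher in rescue than in control, with 8 lower without control replicate 1, 2 without control replicate 2, 1 without either rescue array and 1 with the 5′ to 3′ index in the model. The 5 general neuronal genes summed to 2817.7 to 2996.8 in rescue, 3010.7 to 3091.0 in mutant and 3035.3 to 3127.1 in control heads, and none of them passed in any comparison. Their median difference between rescue and control was nevertheless -0.42, as low as that of the cascade genes, with elav, brp, cac and para from -0.53 to -0.34 and nSyb at 0.48. Dimmer probe sets went the other way, at 0.41, 0.10 and 0.10 for brp and 0.06 for cac, and did not pass. The 8 hemocyte genes summed to 2774.9 to 2802.2 in rescue, 1680.0 to 2123.0 in mutant and 1451.9 to 2202.1 in control heads, with 2 of them higher in rescue than in control. The 5 glial genes summed to 9272.6 to 9771.3 in rescue, 8806.9 to 9279.2 in mutant and 7519.5 to 8282.0 in control heads, with 2 higher in rescue than in control. Between rescue and control, 1 of 7 fat body genes and 1 of 4 lens and accessory cell genes were lower, and 0 of 4 muscle genes passed. Of all 1-symbol genes, 8.91% were higher and 5.69% lower in that comparison. Some genes of these lists, among them TpnC4, cn, Fbp2 and He, read within the 7.7 to 39.8 of the control probe sets with no fly target. The part of these shifts in the values of Rh7 was not tested.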

How the data were processed

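The authors deposited 1 intensity per probe set and array, made with RMA (background correction, quantile normalisation and probe summary), per the submitters' processing notes (the sources used here give no version). Intensities were linear, from 5.6 to 16778.3, and medians per array ran from 59.6 to 60.7, so log2 was taken before testing. Quantile normalisation removes any change shared by all transcripts, and RMA understates differences of dim probe sets. The number of arrays, 2 per group, limits the precision.

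The table has 18952 probe sets, of which 183 are controls and were dropped. Among the 18769 tested, 13647 had 1 gene symbol, 402 several and 4720 none in the platform annotation. Where a gene has several probe sets, the one with the highest mean stands for it.

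Groups were compared by lmFit and eBayes of limma (version 3.58.1, R version 4.3.3, all 6 arrays in 1 fit, two-sided), with 3 residual and 4 prior degrees of freedom and Benjamini-Hochberg adjustment over all tested probe sets within each comparison. A permutation test of 2 arrays against 2 cannot go below p = 0.333. On data simulated for mutant against control over 18769 probe sets, 55.2% of 1.5-fold and 82.1% of 2-fold changes were recovered, and 4.94% of calls were false. The simulated noise was normal and independent between probe sets, with no effect shared by an array. A smaller share of probe sets was changed than was called in the data. These rates therefore need not hold for the arrays themselves.

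Every Rh7 probe set is named, as are the 3 genes most like each. In the 6 lists of the visual pathway, up to 6 called genes per list and comparison are named, those with the largest change. Neighbours of Rh7, cry, Pdf and the cell type lists were also read. The members and lists were chosen with earlier results of these data known. Alternatives left out each array, used a replicate block, array weights, a variance trend, a pseudocount of 16, a filter at a mean log2 of 5, median centring, a 5′ to 3′ covariate (mean log2 ratio of the actin and GAPDH control probe sets) or only the 2 groups compared.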

Additional observations from a re-analysis of the deposited data

How the results depend on the processing

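The number of rhodopsin genes called, with Rh7 represented by its brighter probe set, was 0 in each of the 3 comparisons. Between rescue and control it became 1 with only probe sets of a mean log2 intensity of at least 5, and ran from 0 to 1 when arrays were left out in turn. It stayed at 0 under every other alternative run, and between mutant and control and between rescue and mutant under all 15. Signs of uncalled differences turned in 3 cases for Rh7: 1629596_s_at between mutant and control was -0.04 without control replicate 1 and -0.066 without mutant replicate 2 (range -0.066 to 0.069 with arrays left out), and the mean of both probe sets between rescue and mutant was 0.005. Pdf between rescue and control turned to -0.014 without control replicate 2 (range -0.014 to 0.154 with arrays left out) and to -0.13 with the 5′ to 3′ covariate. The count of all probe sets called was 2020 between mutant and control and ran from 605 to 4029, 263 between rescue and mutant (42 to 771) and 2266 between rescue and control (492 to 4879). The replicate block gave 1277, 130 and 1379 called probe sets in that order and left the count of rhodopsin genes called at 0. The numbers were not taken as pairs, since differences between replicates correlated across probe sets at -0.255 for mutant with control, 0.004 for rescue with mutant and -0.188 for rescue with control. The cause of these shifts was not tested. Signal over background could not be judged for the dimmer Rh7 probe set, since the table holds no detection call.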
